A study of Sus scrofa with 12 samples.

Results

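The genes described here are NFE2L2, which encodes the transcription factor NRF2, its repressor KEAP1 and 7 targets of NRF2, namely HMOX1, GCLC, GCLM, SRXN1, TXNRD1, SLC7A11 and OSGIN1. They were chosen by gene symbol for their roles in the pathway, with earlier results of these data known, and no threshold on a measured value was used. All 9 had a row among the 31908 rows of the table, and all 9 were among the 13216 genes that passed the filter on low counts. The libraries were made from primary porcine aortic valve interstitial cells (paVICs), the resident fibroblasts of the valve leaflet, of WT genotype. Cells were treated for 24 h in low-serum medium in 4 groups of 3 libraries. Vehicle cells received 0.6% DMSO and 0.1% EtOH. LPC cells received 10 µM lysophosphatidylcholine, a lipid of oxidized low-density lipoprotein, dissolved in EtOH, with 0.6% DMSO. Dantrolene cells received 60 µM dantrolene, a blocker of the ryanodine receptor, dissolved in DMSO, with 0.1% EtOH. LPC + dantrolene cells, below also called the combination, received 10 µM LPC and 60 µM dantrolene, each in its own solvent. Replicates 1, 2 and 3 of every group came from 3 separate cell isolations, each of which pooled the valves of several pig hearts, so a replicate is not a single animal.

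In resting cells KEAP1 holds NRF2 in the cytoplasm and hands it to a ubiquitin ligase for destruction. Oxidants and electrophiles modify KEAP1, NRF2 then collects in the nucleus, pairs with small MAF proteins and switches on genes that carry antioxidant response elements. Those genes make glutathione, run the thioredoxin system, break down haem and detoxify quinones. NRF2 is controlled mainly through the stability of its protein, which these libraries do not measure, so the values below are mRNA levels only.

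NFE2L2 and SLC7A11 rose in all 3 treatments, GCLM rose with LPC, and no member was called lower. NFE2L2 mRNA was 2.85-fold higher with LPC, 3.10-fold higher with dantrolene and 3.12-fold higher with LPC + dantrolene. SLC7A11 mRNA was 4.68-fold, 5.31-fold and 5.22-fold higher in the same order. GCLC, HMOX1, SRXN1, TXNRD1, OSGIN1 and KEAP1 passed the test in none of the 3 treatments. Changes were tested in edgeR's quasi-likelihood fit of all 12 libraries, with p-values adjusted by the Benjamini-Hochberg method over the 13216 genes and called under 0.05. The 3 treatments share the same vehicle libraries, so they are not independent of each other.

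The members called higher numbered 3 of 9 with LPC, where 8.54% of all genes tested were called higher. They numbered 2 of 9 with dantrolene, against 7.54% of all genes, and 2 of 9 with LPC + dantrolene, against 6.23%. No member was called lower, against 0.144%, 1.26% and 0.9% of all genes in the same order. The median log2 fold change of the 9 members was −0.014 with LPC, 0.33 with dantrolene and 0.46 with LPC + dantrolene, beside −0.18, −0.11 and −0.080 over all genes tested. When library totals replaced TMM scaling, the all-gene medians were −0.0023, 0.13 and 0.12. Relative to the all-gene median of each comparison, the change of NFE2L2 was 1.69, 1.74 and 1.72 on the log2 scale, and that of SLC7A11 was 2.40, 2.52 and 2.46.

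**Figure D1:**
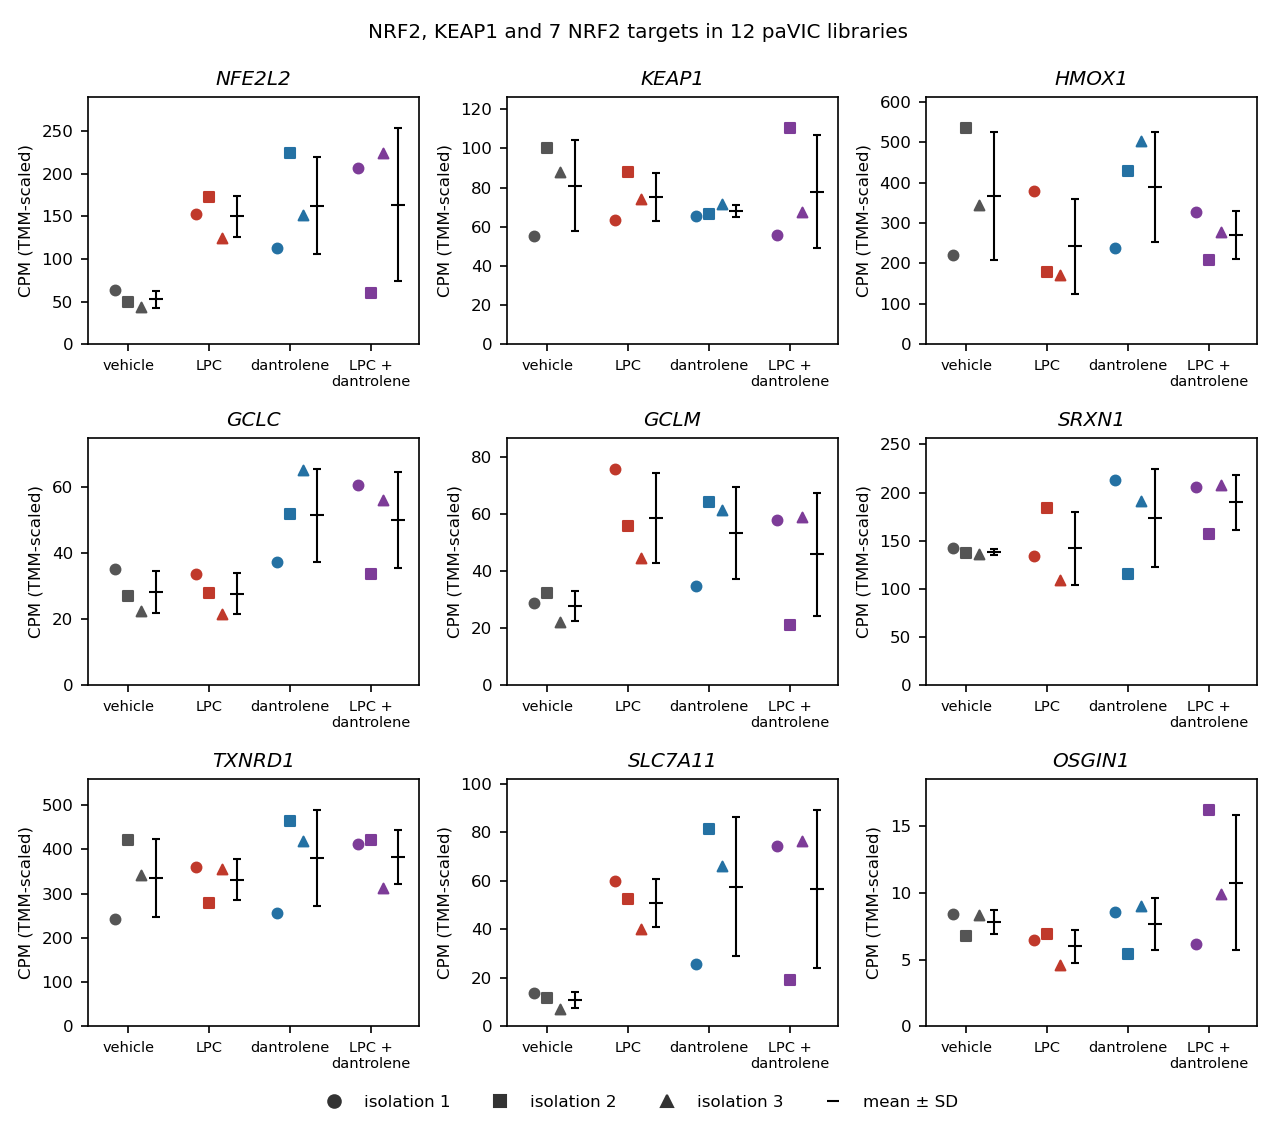
Level of each member in CPM (read counts relative to library size, TMM-scaled, linear axis from 0) in each of the 12 libraries, with the mean and SD of each group (n = 3) to the right of its points and the marker giving the isolation. NFE2L2 stood at 43.8 to 64.0 CPM in vehicle and at 125 to 172 with LPC, while HMOX1 and KEAP1 overlapped between all groups.

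Levels are given as CPM, the count relative to library size after TMM scaling. The libraries held 16489684 to 24105935 counts, at which 3 counts correspond to 0.114 to 0.186 CPM, far below the level of any member. All 9 markers of valve interstitial cells or fibroblasts were detected in all 12 libraries, and their summed level was 83178 to 99226 CPM in vehicle, 62984 to 89510 with LPC, 58275 to 77719 with dantrolene and 59911 to 110437 with the combination. Of these 9 markers, 2 had log2 fold changes above 0 in each treatment, and the medians were −0.25, −0.40 and −0.19. LUM, a collagen-binding proteoglycan, was called higher in all 3 treatments, by 1.35, 1.59 and 1.35 on the log2 scale. POSTN, a matrix protein, was called higher with LPC by 1.60 (adjusted p = 0.00188, edgeR), although its LPC and vehicle libraries overlapped. DESeq2 called 1 of the 9 with LPC. COL1A1 was at −0.65 with dantrolene (adjusted p = 0.303, edgeR), with all 3 libraries below all vehicle libraries. When replicate 2 of LPC + dantrolene was left out, ACTA2 and TAGLN were called lower with the combination, with log2 fold changes of −1.24 and −1.15, and POSTN was called higher there too, by 1.43. Of 7 endothelial markers, PECAM1, CDH5, VWF and TIE1 were detected in all libraries, and the 7 summed to 86.0 to 88.9 CPM in vehicle, 62.7 to 70.5 with LPC, 48.4 to 67.0 with dantrolene and 52.5 to 61.5 with the combination. CDH5, the endothelial cadherin, was called lower with dantrolene, at −1.20 on the log2 scale (adjusted p = 0.0111, edgeR), and was at −0.997 with the combination (adjusted p = 0.0536, and 0.0190 without its replicate 2). Of 7 leukocyte markers, PTPRC, CD163 and CD3E were at 0 in all 12 libraries, CD14 was detected in all at 10.3 to 24.5 CPM and CD68 at 0.76 to 3.17, and the 7 summed to 13.2 to 28.5 CPM. CD68 was higher in each combination library than in each vehicle library but was not called (log2 fold change 0.78, adjusted p = 0.685, edgeR). The 13 mitochondrial genes took 1.24% to 2.12% of counts in vehicle, 1.53% to 2.84% with LPC, 2.16% to 4.17% with dantrolene and 2.33% to 3.19% with the combination. The part of these shifts in the results was not tested. Replicate 2 of LPC + dantrolene stood apart, with a mean correlation of 0.922 with the other libraries where the rest had 0.941 to 0.962. Calls of named genes that turned on it are therefore given with and without it. In these bulk libraries, fewer cells of a type and less RNA per cell cannot be told apart.

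NFE2L2 (chr15:82967485-83146185, Sscrofa11.1) was measured at 64.0, 49.7 and 43.8 CPM in vehicle replicates 1, 2 and 3. It was at 153, 172 and 125 CPM with LPC and at 112, 224 and 151 CPM with dantrolene, and no library of either group overlapped with vehicle. With LPC + dantrolene it was at 206, 60.4 and 224 CPM, so replicate 2 lay within the vehicle range while the other 2 lay far above it. Group means were 52.5 ± 10.4 CPM in vehicle, 150 ± 23.8 with LPC, 163 ± 56.8 with dantrolene and 164 ± 89.8 with LPC + dantrolene (mean ± SD, n = 3). Against vehicle, NFE2L2 was higher by 1.51 on the log2 scale with LPC (SE 0.35, adjusted p = 0.00104, edgeR), by 1.63 with dantrolene (SE 0.35, adjusted p = 0.000503) and by 1.64 with LPC + dantrolene (SE 0.35, adjusted p = 0.000509). Each of the 3 isolations was higher than its own vehicle in each treatment. Without replicate 2 of LPC + dantrolene, the log2 fold change in that group was 2.09 (adjusted p = 7.93e-08).

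KEAP1 (chr2:69280940-69290267), the adaptor that targets NRF2 for degradation, was at 55.3 to 99.98 CPM in vehicle, 63.6 to 87.7 with LPC, 65.5 to 71.6 with dantrolene and 55.6 to 110 with the combination. All 4 ranges overlapped. The log2 fold changes were −0.11 with LPC (95% interval −0.75 to 0.53), −0.25 with dantrolene (−0.89 to 0.39) and −0.057 with the combination (−0.70 to 0.58), with adjusted p-values of 0.879, 0.783 and 0.982 in edgeR. The sign of the LPC value turned when library totals alone were used, and that of the LPC + dantrolene value turned under every other scaling tried.

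The count of NFE2L2 divided by the count of KEAP1 in the same library was 1.16, 0.497 and 0.499 in vehicle. It was 2.40, 1.96 and 1.69 with LPC, 1.71, 3.36 and 2.11 with dantrolene, and 3.71, 0.548 and 3.32 with LPC + dantrolene. All LPC and dantrolene libraries were above all vehicle libraries, whereas replicate 2 of LPC + dantrolene was not. The mean log2 ratio exceeded that of vehicle by 1.60 with LPC and by 1.80 with dantrolene (exact permutation test, two-sided, p = 0.1 for each, the smallest that 3 against 3 libraries allow, and 0.24 when adjusted over the 12 comparisons of ratios). With LPC + dantrolene the excess was 1.52 (exact permutation p = 0.2, adjusted 0.4), and it was 2.41 without replicate 2. This ratio was chosen after the values were seen, and it does not depend on the scaling of the libraries.

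**Figure D2:**
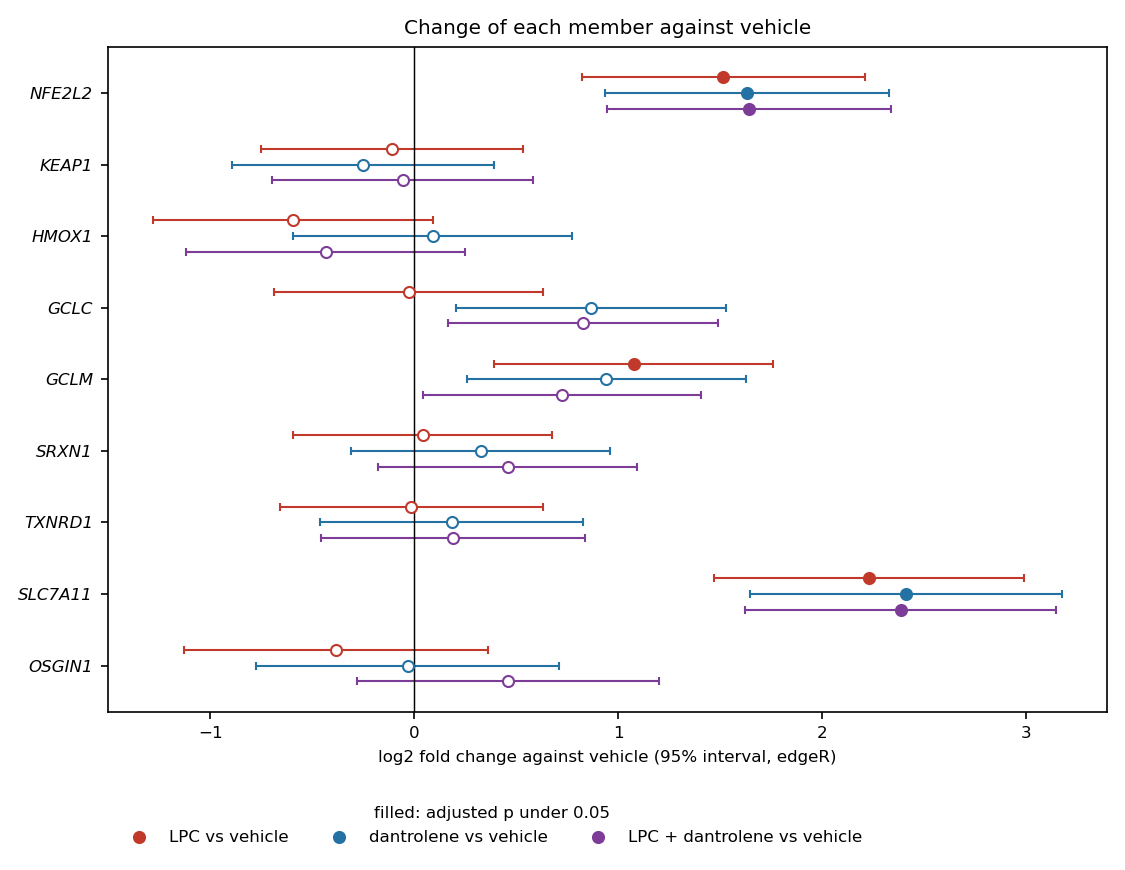
Log2 fold change of each member against vehicle (horizontal axis) with its 95% interval from edgeR, in LPC, dantrolene and LPC + dantrolene, where filled points passed an adjusted p of 0.05. The intervals of NFE2L2 and SLC7A11 lie wholly above 0 in all 3 treatments, and those of KEAP1, HMOX1, SRXN1, TXNRD1 and OSGIN1 span 0 in all 3.

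Glutathione synthesis depends on cystine import by SLC7A11, the transport subunit of the cystine-glutamate antiporter, and on glutamate-cysteine ligase, a dimer of the catalytic subunit GCLC and the modifier subunit GCLM. SLC7A11 (chr8:88608083-88690589) was at 13.5, 11.7 and 7.21 CPM in vehicle replicates 1, 2 and 3. It was at 59.9, 52.2 and 40.2 CPM with LPC, at 25.7, 81.1 and 65.9 with dantrolene, and at 74.4, 19.1 and 76.2 with LPC + dantrolene. Every treated library was above every vehicle library, although replicate 1 of dantrolene and replicate 2 of LPC + dantrolene were well below the other treated libraries. SLC7A11 was the member with the largest change, with log2 fold changes of 2.23 with LPC (SE 0.38, adjusted p = 1.13e-05, edgeR), 2.41 with dantrolene (SE 0.38, adjusted p = 6.34e-06) and 2.38 with LPC + dantrolene (SE 0.38, adjusted p = 9.56e-06). Without replicate 2 of LPC + dantrolene, the value in that group was 2.85 (adjusted p = 1.74e-09).

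GCLM (chr4:123371198-123390130) was at 28.9, 32.5 and 22.1 CPM in vehicle and at 75.7, 55.6 and 44.5 CPM with LPC, with no overlap. It rose with LPC by 1.07 on the log2 scale, or 2.11-fold (SE 0.34, adjusted p = 0.0318, edgeR). With the isolation as a block, the value was 1.06 and did not pass the test (adjusted p = 0.0905). The call was also lost when any of the 3 vehicle libraries or replicate 1 or 2 of LPC was left out, with adjusted p-values up to 0.288. With dantrolene GCLM was at 34.7, 64.0 and 61.3 CPM, above all vehicle libraries, for a log2 fold change of 0.94 (adjusted p = 0.0770). With LPC + dantrolene it was at 57.7, 21.0 and 58.9 CPM, where replicate 2 was below all 3 vehicle libraries, for a log2 fold change of 0.72 (adjusted p = 0.289).

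GCLC (chr7:27209565-27253535) was at 35.2, 27.0 and 22.5 CPM in vehicle and at 33.9, 27.9 and 21.5 CPM with LPC, nearly the same range. Its log2 fold change with LPC was −0.027 (SE 0.33, 95% interval −0.69 to 0.63, adjusted p = 0.974, edgeR), and the sign turned under the other scalings. With dantrolene it was at 37.3, 52.0 and 65.3 CPM, above all vehicle libraries, for a log2 fold change of 0.87 (adjusted p = 0.101). With LPC + dantrolene it was at 60.7, 33.7 and 56.2 CPM, with replicate 2 inside the vehicle range, for a log2 fold change of 0.83 (adjusted p = 0.147). The members whose 3 libraries all exceeded all 3 vehicle libraries numbered 3 with LPC, 4 with dantrolene and 2 with LPC + dantrolene, against 16.6%, 16.1% and 4.71% of all genes tested.

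How many members were called depended on which libraries were fitted. Without replicate 2 of LPC + dantrolene, GCLM and GCLC were called higher beside NFE2L2 and SLC7A11 with dantrolene and with LPC + dantrolene. The count thus went from 2 to 4 of 9 members in both. The share of all genes called higher then went to 11.2% with dantrolene and 12.6% with LPC + dantrolene. GCLC then had a log2 fold change of 0.92 with dantrolene (adjusted p = 0.00996, edgeR) and 1.10 with LPC + dantrolene (adjusted p = 0.00380). GCLM had 1.00 (adjusted p = 0.00505) and 1.12 (adjusted p = 0.00332). With all 12 libraries the dantrolene values were 0.87 for GCLC and 0.94 for GCLM, so these moved little. Their SEs went from 0.33 and 0.34 to 0.27. Leaving out replicate 1 of dantrolene also raised the dantrolene count to 4, where 1051 of 13636 genes were called higher. That library had the lowest NFE2L2, SLC7A11, GCLM and GCLC of its group, so leaving it out raises their changes by construction. Replicate 2 of LPC + dantrolene likewise had the lowest of these genes in its group, so leaving it out raises their changes with the combination by construction.

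The counts of the 2 ligase subunits moved apart with LPC. The GCLC count divided by the GCLM count of the same library was 1.22, 0.833 and 1.02 in vehicle and 0.448, 0.501 and 0.483 with LPC. It was 1.07, 0.813 and 1.06 with dantrolene and 1.05, 1.60 and 0.955 with LPC + dantrolene. All 3 LPC libraries were below the 9 others, which overlapped among themselves. The mean log2 ratio was −1.07 ± 0.083 with LPC against 0.016 ± 0.28 in vehicle (SD, n = 3), −0.035 ± 0.23 with dantrolene and 0.23 ± 0.40 with LPC + dantrolene. LPC differed from each other group at p = 0.1 (exact permutation test, two-sided), the smallest p the design allows, and 0.24 when adjusted over the 12 comparisons of ratios. The difference from vehicle was −1.09, and −1.23 to −0.95 when each library was left out in turn. This ratio too was chosen after the values were seen.

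**Figure D3:**
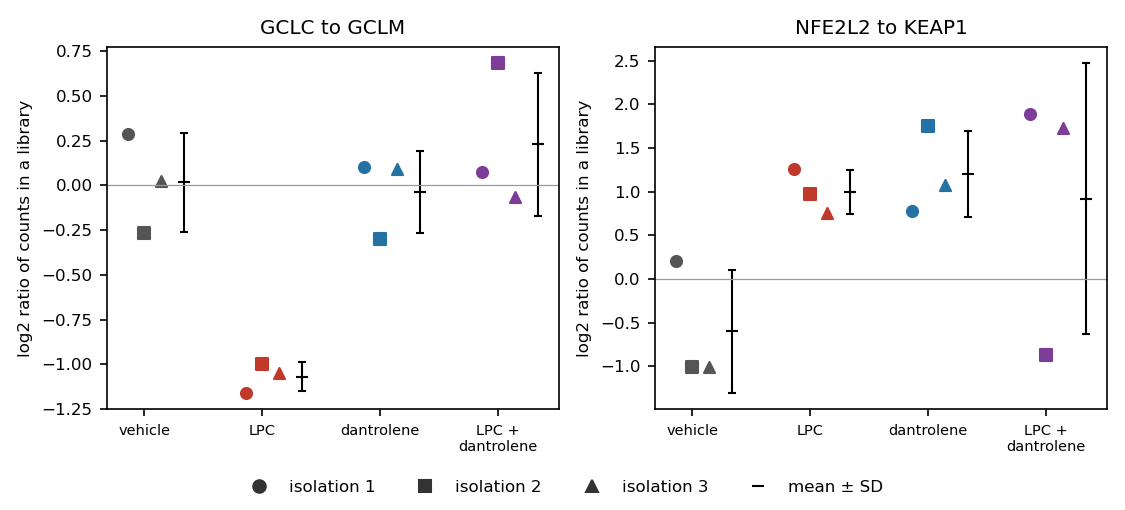
Log2 ratio of the counts of GCLC to GCLM (left) and of NFE2L2 to KEAP1 (right) within each library, with the mean and SD of each group (n = 3). The 3 LPC libraries lie near −1.07 for GCLC to GCLM, below all 9 other libraries.

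The thioredoxin system reduces oxidized proteins and peroxiredoxins, with TXNRD1 reducing thioredoxin and SRXN1 repairing overoxidized peroxiredoxins. TXNRD1 (chr5:80170334-80213889) was at 243 to 420 CPM in vehicle, 278 to 361 with LPC, 257 to 463 with dantrolene and 312 to 422 with the combination, and the ranges overlapped throughout. Its log2 fold changes were −0.014, 0.18 and 0.19, with the LPC sign turning under the other scalings, and the adjusted p-values were 0.987, 0.844 and 0.932 (edgeR). SRXN1 (chr17:34582377-34589308) was tightly grouped in vehicle, at 136 to 142 CPM. It was at 109 to 184 CPM with LPC, at 116 to 213 with dantrolene and at 157 to 208 with the combination, the group in which all 3 libraries were above all vehicle libraries. The log2 fold changes of SRXN1 were 0.040, 0.33 and 0.46 (adjusted p = 0.958, 0.713 and 0.647). The 95% interval with LPC + dantrolene ran from −0.18 to 1.09, so a doubling of SRXN1 was not excluded at this number of libraries.

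HMOX1, which breaks down haem to biliverdin, carbon monoxide and iron, lies on a sequence not placed on a chromosome in Sscrofa11.1. It was at 220, 535 and 345 CPM in vehicle, at 379, 178 and 170 with LPC, at 239, 428 and 503 with dantrolene, and at 327, 208 and 279 with LPC + dantrolene. The groups overlapped, and the 3 vehicle libraries differed from each other more than the group means did. The log2 fold changes were −0.60 with LPC (95% interval −1.28 to 0.089, adjusted p = 0.440, edgeR), 0.090 with dantrolene (−0.59 to 0.77, adjusted p = 0.931) and −0.43 with the combination (−1.12 to 0.25, adjusted p = 0.731). In isolation 1 HMOX1 was higher than its own vehicle with LPC, and in isolations 2 and 3 it was lower.

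OSGIN1 (chr6:4642762-4656113), an oxidative stress-induced growth inhibitor, had the fewest counts of the members, 89 to 261 per library. It was at 6.77 to 8.39 CPM in vehicle, 4.58 to 6.95 with LPC, 5.45 to 9.004 with dantrolene and 6.16 to 16.2 with the combination, where replicate 2 was the highest. The log2 fold changes were −0.39, −0.033 and 0.46 (adjusted p = 0.659, 0.980 and 0.743, edgeR), and the dantrolene sign turned under the other scalings. Leaving out replicate 2 of LPC + dantrolene brought the value in that group to 0.091 (adjusted p = 0.909).

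Direct comparison of the treated groups called none of the 9 members. For LPC + dantrolene against LPC, 0.219% of all genes were called higher and 0.288% lower by edgeR, and 2 members, GCLC and OSGIN1, had an unadjusted p under 0.05, as did 6.61% of all genes, with none called by DESeq2. GCLC was 0.86 higher on the log2 scale in this comparison (unadjusted p = 0.0119, adjusted p = 0.432) and OSGIN1 was 0.84 higher (unadjusted p = 0.0272, adjusted p = 0.612). Leaving out replicate 2 of LPC + dantrolene gave 1.06 for GCLC (adjusted p = 0.0517, edgeR) and 0.41 for OSGIN1 (adjusted p = 0.934). For dantrolene against LPC, where 0.113% of genes were called higher and 0.212% lower, GCLC was the single member with an unadjusted p under 0.05, against 4.4% of all genes, and again none was called by DESeq2. GCLC was 0.89 higher with dantrolene than with LPC (unadjusted p = 0.00871, adjusted p = 0.530), and its 3 dantrolene libraries were all above its 3 LPC libraries, as were those of 5.18% of all genes. For LPC + dantrolene against dantrolene, 0.0151% of genes were called higher and 0.00757% lower, and 0 members had an unadjusted p under 0.05, against 1.28% of all genes, or were called by DESeq2.

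NFE2L2 and SLC7A11 did not pass the test in any comparison among the 3 treated groups. For NFE2L2 the log2 difference was 0.13 for LPC + dantrolene against LPC (95% interval −0.55 to 0.80), 0.0088 against dantrolene (−0.67 to 0.69) and 0.12 for dantrolene against LPC (−0.56 to 0.79). For SLC7A11 the same differences were 0.16 (−0.56 to 0.88), −0.024 (−0.74 to 0.69) and 0.18 (−0.54 to 0.90). All 6 intervals span 0 and reach at least 0.54 below and 0.69 above it, so they do not show that the treatments act alike.

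For SLC7A11, the combined treatment gave less than the sum of both log2 changes. The interaction is the effect of LPC in the presence of dantrolene less its effect without it. It was −2.25 for SLC7A11 (SE 0.52, adjusted p = 0.00369, edgeR), the single member called of 9, where 4.49% of all genes were called lower and 0.159% higher. All 3 isolations had a negative SLC7A11 interaction, and the value was −1.90 (adjusted p = 0.00462) without replicate 2 of LPC + dantrolene. The call was lost in DESeq2 and without replicate 2 of LPC or replicate 2 of dantrolene, with adjusted p-values up to 0.0912. Over all genes, 4 of 13640 and 31 of 13592 were called lower without those 2 libraries in turn. For NFE2L2 the interaction was −1.50 (SE 0.48, adjusted p = 0.0531) and for GCLM it was −1.29 (SE 0.48, adjusted p = 0.120), each negative in all 3 isolations and neither called.

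The other genes of the pathway mostly did not pass the test. Of 36 genes in 5 lists, 31 were tested. TXN, GSTP1 and FTH1 had no row under their symbols, and NFE2L3 and CBR1 were below the filter. With LPC 1 of the 31 was called higher, with dantrolene 1 and with LPC + dantrolene 1, beside 8.54%, 7.54% and 6.23% of all genes tested, and none was called lower. The counts were 1, 2 and 3 without replicate 2 of LPC + dantrolene, beside 1623, 1515 and 1706 of all 13583 genes then tested. With the isolation as a block they were 0, 1 and 1, beside 872, 740 and 559 of 13216. Their median log2 fold changes were −0.28, 0.070 and 0.16, beside −0.18, −0.11 and −0.080 over all genes tested.

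Among the partners and regulators of NRF2, BACH1, a repressor that competes for NRF2 binding sites, was at 24.99 to 36.9 CPM in vehicle and 67.2 to 82.9 with LPC. It rose by 1.21 on the log2 scale with LPC (SE 0.36, adjusted p = 0.0150, edgeR), and the adjusted p was 0.0513 with the isolation as a block and up to 0.0956 when a library was left out. In dantrolene it was at 46.8 to 75.4 CPM (log2 fold change 0.83, adjusted p = 0.165) and in LPC + dantrolene at 12.4 to 63.5. BACH1 was called higher in these groups too when replicate 2 of LPC + dantrolene was left out, by 0.89 with dantrolene (adjusted p = 0.0125) and by 0.86 with LPC + dantrolene (adjusted p = 0.0284). The BACH1 interaction was −1.67 (SE 0.50, adjusted p = 0.0329), and it was lost in 10 of 18 alternatives, with an adjusted p of 0.0858 under the block and up to 0.244. None of the other 7 genes tested in that list, which holds MAFF, MAFG, MAFK and CUL3, was called against vehicle. MAFF went the other way, by −0.79 with dantrolene (adjusted p = 0.169, edgeR), with all 3 libraries below vehicle, and by −0.71 with LPC + dantrolene (adjusted p = 0.286). RBX1 also went down, by −0.57 with dantrolene (adjusted p = 0.399, edgeR). RBX1 was at 52.4 to 79.2 CPM in vehicle and at 32.9 to 49.0 with LPC + dantrolene, without overlap. Of the 8 genes tested, 4 were above 0 with dantrolene and 4 with LPC + dantrolene. CUL3, the scaffold of the ligase that KEAP1 serves, was called higher with LPC + dantrolene once its replicate 2 was left out (log2 fold change 0.87, adjusted p = 0.0247, edgeR, against 0.618 with it).

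Among 5 tested genes of quinone and carbonyl detoxification, NQO1, a quinone reductase, was at 59.0 to 86.3 CPM in vehicle and 67.2 to 99.5 with LPC. It was at 132 to 224 CPM with dantrolene and 127 to 277 with the combination, above all vehicle and LPC libraries. NQO1 rose by 1.36 with dantrolene (SE 0.33, adjusted p = 0.00260, edgeR) and by 1.33 with LPC + dantrolene (SE 0.33, adjusted p = 0.00346). Without replicate 2 of vehicle the adjusted p-values were 0.0601 and 0.0750. Leaving out replicate 2 of LPC + dantrolene brought the value in that group to 0.99 (adjusted p = 0.00893, edgeR). Set directly against LPC, NQO1 was 1.21 higher with LPC + dantrolene (adjusted p = 0.0722) and 1.23 higher with dantrolene (adjusted p = 0.0804), neither called by edgeR, while DESeq2 called 1 of the 5 genes in the former comparison and 0 in the latter. Without replicate 2 of LPC + dantrolene, NQO1 was called higher with dantrolene than with LPC (log2 difference 1.23, adjusted p = 0.00531, edgeR), as were 0.199% of all genes.

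None of the 7 tested genes of the thioredoxin and glutathione list (such as PRDX1, GSR and ABCC1), of the 5 of haem and iron (such as FTL and BLVRB) or of the 6 of NADPH supply (such as PGD and ME1) was called against vehicle, by edgeR or DESeq2. Of all genes tested, edgeR called 8.54% higher with LPC, 7.54% with dantrolene and 6.23% with LPC + dantrolene. The medians of these lists were −0.33, −0.37 and −0.30 with LPC, 0.062, 0.11 and −0.019 with dantrolene, and 0.11, 0.18 and 0.089 with LPC + dantrolene.

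**Figure D4:**
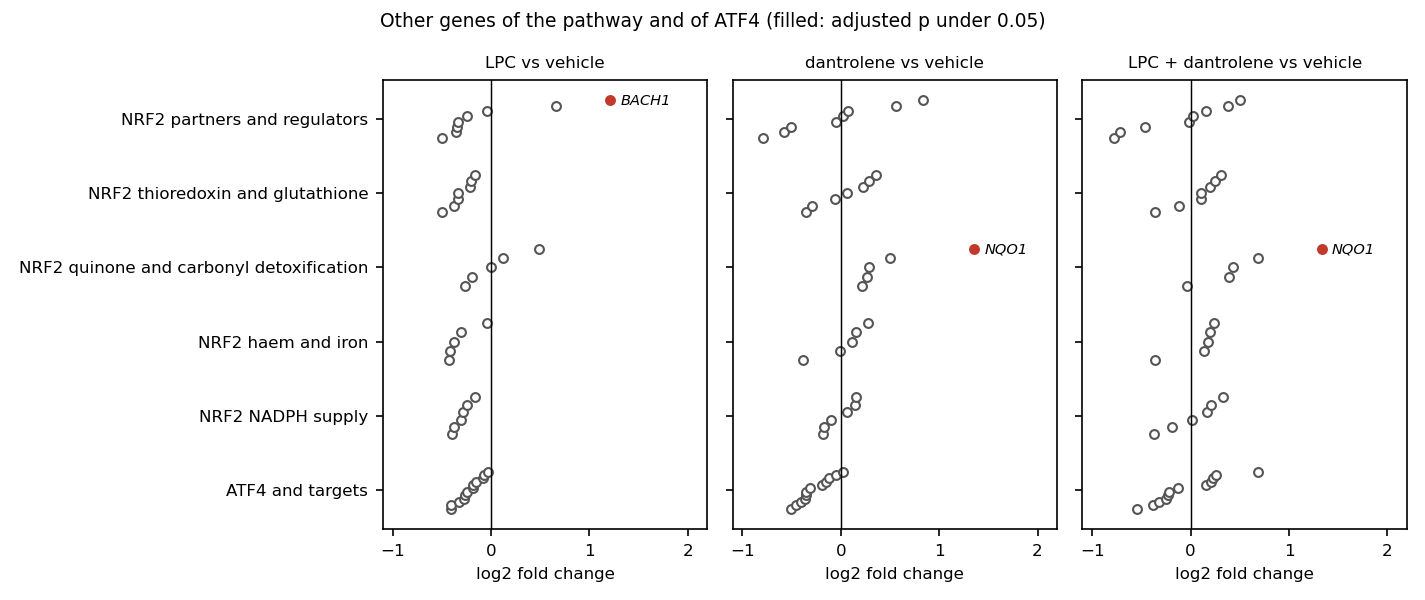
Log2 fold change against vehicle (horizontal axis) of the tested genes of 5 lists of the NRF2 pathway and of the 12 genes of a list of ATF4 and its targets, 1 point per gene, in each treatment. BACH1 with LPC (1.21) and NQO1 with dantrolene (1.36) and LPC + dantrolene (1.33) are the points that passed an adjusted p of 0.05.

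SLC7A11 is also a known target of ATF4, the factor of the amino acid and unfolded protein responses, and NQO1 a known target of the aryl hydrocarbon receptor. Of 12 genes in a list of ATF4 and its other targets, 0 were called in any comparison by edgeR or DESeq2. Against vehicle, edgeR called 8.54%, 7.54% and 6.23% of all genes higher and 0.144%, 1.26% and 0.9% lower, so 0 of 12 is near those shares. Of the 12 genes, VLDLR was called lower with LPC + dantrolene once its replicate 2 was left out (log2 fold change −0.90, adjusted p = 0.0318, edgeR). Their medians were −0.22 with LPC, −0.33 with dantrolene and −0.18 with LPC + dantrolene. The 4 other aryl hydrocarbon receptor targets, AHRR, CYP1A1, CYP1B1 and TIPARP, were all called higher with dantrolene, by 1.55 to 7.13 on the log2 scale, and with LPC + dantrolene, by 1.59 to 7.21. With LPC 0 of 4 were called. The study names CYP1B1 and CYP1A1 as the most differentially regulated genes of these same libraries, so this count is not independent evidence of a direction. The part of either factor in the levels of SLC7A11 or NQO1 was not tested.

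The library-to-library pattern of NFE2L2 was shared by many genes outside the pathway. As a measure of likeness, log2 CPM was centred on each gene's mean over the 12 libraries and the root mean square difference from NFE2L2 was taken, where NFE2L2 itself varied by 0.83. This measure counts the size of the swing as well as its direction, so a gene that moves alike but more or less strongly ranks farther. SLC7A11 itself varied by 1.16 and GCLM by 0.60. The 5 nearest genes were LRPPRC at 0.11, SUZ12 and CNOT7 at 0.13, and SNX4 and CBX3 at 0.14. Of the members, GCLM was nearest at 0.39, with 864 of the 13216 genes nearer, followed by SLC7A11 at 0.39 with 889 nearer and GCLC at 0.64 with 2134 nearer. For the remaining members 3369 to 8725 genes were nearer. Without replicate 2 of LPC + dantrolene, LRPPRC and CBX3 stayed among the 5 nearest, which were then SHPRH, LRPPRC, ARID2, EVI5 and CBX3. These values are descriptions over libraries that share 4 groups and 3 isolations.

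The mean centred level of the 7 targets had as its nearest genes CCDC136, PHLDA1, PRXL2A, GEMIN5 and RTN4IP1, at 0.19 to 0.21, where the mean itself varied by 0.35. None of these 5 was among the nearest without replicate 2 of LPC + dantrolene, when ACTL6A, FKBP5, KIFBP, DENR and HNRNPDL took their place.

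Genes of coiled-coil, endosomal and cohesin proteins that the study names, KTN1, EEA1, PCM1, VPS13C, STAG2, SMC3 and NIPBL, moved in the same libraries as NFE2L2. They were set beside the members after the values were seen, and the study chose them on these libraries, so they are not independent evidence of a direction. All 7 were called higher in each treatment, and all 7 had an interaction called lower, at −3.09 to −2.51 on the log2 scale. Their summed level was 90.7, 63.5 and 53.2 CPM in vehicle replicates 1, 2 and 3, and 401, 524 and 382 with LPC. It was 193, 703 and 340 CPM with dantrolene and 406, 161 and 559 with LPC + dantrolene. Replicate 1 of dantrolene and replicate 2 of LPC + dantrolene were the lowest treated libraries for this sum, and likewise for NFE2L2, SLC7A11 and GCLM. The part of this shared pattern in the rise of the members was not tested.

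**Figure D5:**
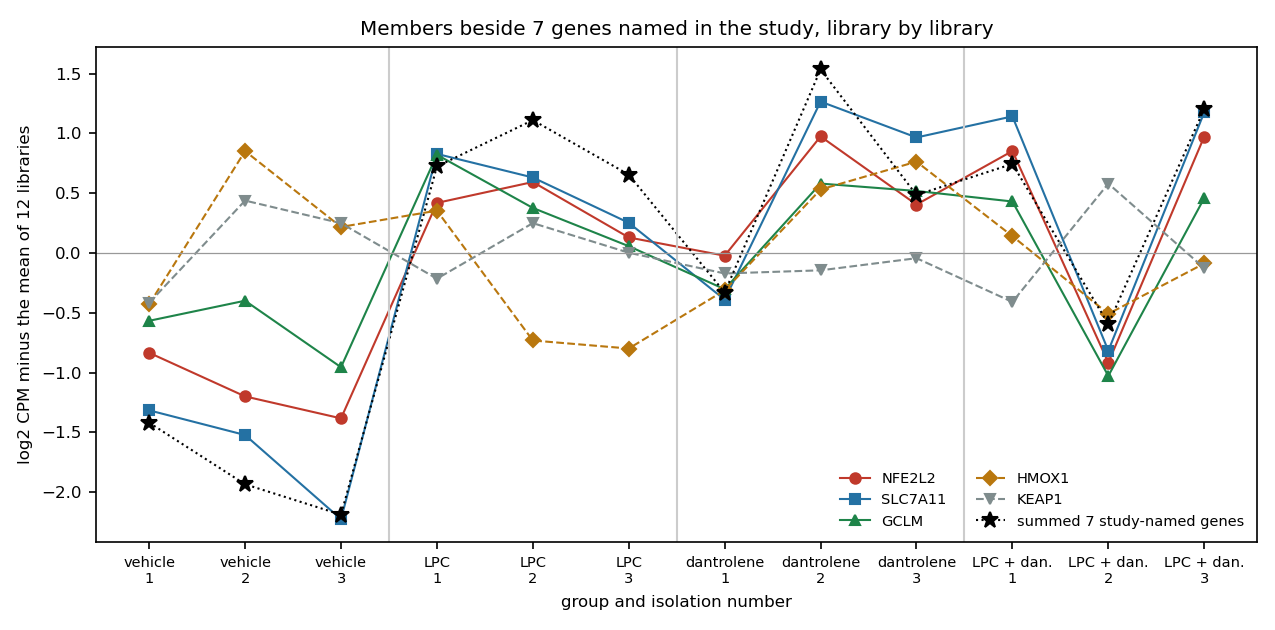
Log2 CPM minus its mean over the 12 libraries for NFE2L2, SLC7A11, GCLM, HMOX1 and KEAP1, and for the summed CPM of the 7 genes named in the study, by group and isolation (lines join points for reading only). NFE2L2, SLC7A11, GCLM and the sum are low in the 3 vehicle libraries and in replicate 2 of LPC + dantrolene, while HMOX1 and KEAP1 do not follow them.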

How the data were processed

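The deposited table holds read counts per gene for 12 poly-A RNA libraries. Per the labels, the authors' processing notes name HISAT2 2.0.5, R 4.1.1, DESeq2 1.32.0 and Sscrofa11.1. The paper's methods name STAR and state that the counts were adjusted for batch with ComBat, so the deposited counts are whole numbers after adjustment and not the reads themselves. Differences between isolations were thereby removed in part, and the adjusted p-values may be too small, since the adjustment is not counted in the fit. Strand use in counting is not given in the sources used here, so overlapping antisense genes cannot be separated. The deposited tables of the authors' own comparisons (fold changes and p-values) were not used.

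Genes were filtered with filterByExpr, leaving 13216, and scaled by TMM. All 12 libraries were fitted by group in edgeR 4.0.16 (glmQLFit, glmQLFTest, R 4.3.3), with Benjamini-Hochberg adjustment over all genes tested and a threshold of 0.05. CPM are TMM-scaled. Log2 CPM for likeness used a prior count of 2. Alternatives were DESeq2 1.42.0, its size factors in edgeR, total counts, no filter, at least 10 counts in every library, the compared groups alone, an adjusted p of 0.1, the isolation as a block, and each library left out in turn. Fits were tested on simulated counts drawn without an isolation effect or a batch adjustment. That test cannot show how the ComBat adjustment affects the p-values. Positions are from the RefSeq gene table of Sscrofa11.1, matched by symbol. Depth limits counting error only, and levels were not compared between genes, since no transcript lengths were used.

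Replicate numbers pair the libraries, because each number marks a primary isolation in the labels. After the authors' adjustment, deviations from the group means of libraries of the same isolation had a median correlation of −0.152 (18 pairs), and those of different isolations 0.108 (36 pairs).

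The 9 members and the other lists were chosen with earlier results of these data known. The genes named are all members, list genes called in any comparison (at most 4 per list and comparison), and the 5 nearest to NFE2L2 and to the mean of the 7 targets. List genes named without a call are given as examples or counter-examples of their list or were called without replicate 2 of LPC + dantrolene (an alternative added for these lists after the values were seen), and the 2 count ratios and the genes named in the study were added after the values were seen.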

Additional observations from a re-analysis of the deposited data

Results flagged for a closer look

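The effect of LPC on SLC7A11 differed with and without dantrolene by a test of the difference itself. LPC raised SLC7A11 by 2.23 on the log2 scale over vehicle, whereas LPC + dantrolene against dantrolene gave −0.024, and the interaction was −2.25 (SE 0.52, adjusted p = 0.00369, edgeR), negative in all 3 isolations. Of all genes tested, 4.49% were called lower in the same contrast. All 7 genes named in the study were among them, at −3.09 to −2.51. So were LRPPRC, SUZ12, SNX4 and CBX3, but not CNOT7, of the genes nearest NFE2L2. The SLC7A11 call was lost in DESeq2, and without replicate 2 of LPC or replicate 2 of dantrolene. Over all genes, 4 of 13640 and 31 of 13592 were called lower without those 2 libraries in turn.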

How the results depend on the processing

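NFE2L2 and SLC7A11 stayed called higher in each treatment against vehicle in all 19 alternatives, with adjusted p-values up to 0.0396 and 0.00595. Of 813 values by comparison and alternative, of the members and of BACH1 and NQO1, 713 kept their direction and side of the threshold. Of the rest, 28 lost a call, 16 gained a call and 56 changed sign. The lost calls were of GCLM with LPC (6), the SLC7A11 interaction (3), BACH1 (7 with LPC, 10 in the interaction) and NQO1 (1 with dantrolene, 1 with LPC + dantrolene). Of 278 counts of members 263 stayed within 1.5 times, but most of these counts were 0 in the main fit and stayed 0. Those that moved are given next. With dantrolene 4 members were called higher when the compared groups alone were fitted, beside 1249 of 12656 genes. When each library was left out, 2 to 4 members were called higher with dantrolene, beside 377 to 1515 of the 13566 to 13681 genes tested. With LPC + dantrolene 2 to 4 members were called higher when each library was left out, beside 466 to 1706 genes. The interaction called 0 members lower in DESeq2, 2 with RLE size factors, without a filter, with at least 10 counts in every library or at an adjusted p under 0.1, and 0 to 2 when each library was left out. Over all genes it called 408 lower in DESeq2 and 4 to 889 when each library was left out. The cause of these shifts was not tested.

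With the isolation as a replicate block, GCLM and BACH1 lost their calls with LPC (adjusted p = 0.0905 and 0.0513), as did the BACH1 interaction (adjusted p = 0.0858), and no other call against vehicle changed among the members, NQO1, the 4 other aryl hydrocarbon receptor targets, the 7 genes named in the study, LUM, POSTN and CDH5. Log2 fold changes under the block were 1.52, 1.65 and 1.63 for NFE2L2 and 2.23, 2.44 and 2.37 for SLC7A11. The block turned the sign of NFE2L2 in LPC + dantrolene against dantrolene (−0.023) and of TXNRD1 with LPC (0.026), neither called.

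All other sign changes were of uncalled values near 0. In the order DESeq2, RLE size factors, total counts and compared groups alone, GCLC with LPC became 0.013, 0.013, 0.16 and 0.048, TXNRD1 with LPC 0.040, 0.040, 0.16 and 0.074, and KEAP1 with LPC + dantrolene 0.014, 0.014, 0.11 and 0.031. OSGIN1 with dantrolene became 0.017, 0.017 and 0.20 under the first 3 of these. Total counts gave 0.068 for KEAP1 with LPC and 0.0093 for SLC7A11 in LPC + dantrolene against dantrolene, and the compared groups alone gave −0.0018 for NFE2L2 there. Leaving out each library gave ranges across 0 for 14 values. With LPC these were KEAP1 (−0.32 to 0.070), GCLC (−0.20 to 0.16), SRXN1 (−0.19 to 0.20) and TXNRD1 (−0.20 to 0.18). With dantrolene they were HMOX1 (−0.17 to 0.47), TXNRD1 (−0.0037 to 0.46) and OSGIN1 (−0.17 to 0.16), and with LPC + dantrolene KEAP1 (−0.34 to 0.13). For LPC + dantrolene against LPC they were NFE2L2 (−0.17 to 0.51) and SLC7A11 (−0.12 to 0.56), against dantrolene NFE2L2 (−0.29 to 0.40) and SLC7A11 (−0.38 to 0.38), and for dantrolene against LPC NFE2L2 (−0.19 to 0.31) and SLC7A11 (−0.15 to 0.52).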
